A study of Mus musculus with 12 samples.

Results

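The interferon response genes examined here were a list of 39 mouse genes that cells switch on when interferon signals, out of 21938 protein-coding genes annotated in the same build. The list was given by name, and the accessible regions belonging to it were found by position. A region belonged to the list when it overlapped the body of a gene or the 10 kb on either side of it. In the full lists of summits with a score of at least 3, 128 of 71006 regions belonged to the list. After the lists had been cut to the same length, 106 of 52815 regions did, 104 of the 128 overlapped one of these, and 24 were seen only among the weaker summits. Of the 106 regions, 42 held the transcription start of a listed gene within 1 kb of a summit, 20 held only the start of another gene, and 44 were distal to any start. For comparisons of rank, 82 of the 106 were tested because they were called in at least 3 lists, and 24 were not. Oas2 was the 1 gene without a region, and 8 regions were shared between listed neighbours.

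Hematopoietic stem cells (HSCs) had been sorted from the bone marrow of C57BL/6 mice by the gate Lin-/cKit+/Sca1+/Flk2-/CD48-/CD150+ and profiled by ATAC-seq, which marks open DNA with a transposase. The 4 groups of 3 libraries were Young WT (3 months), Young Mlkl-/- (3 months), Aged WT (18 months) and Aged Mlkl-/- (18 months), with no treatment in any group. Mlkl-/- mice lack in every cell the pseudokinase MLKL, known as the executioner of necroptosis. Each library came from cells pooled over several mice, more of them for the young groups, and all libraries were prepared on 1 day. Since cells were measured in bulk, fewer cells with an open region and a less open region in each cell cannot be told apart.

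Type I interferons bind a receptor on the cell surface and activate the kinases JAK1 and TYK2. STAT2 and IRF9 then act in the complex ISGF3, which binds the interferon-stimulated response element (ISRE), while the gamma-activated sequence (GAS) is the element known from the response to interferon gamma. The genes downstream sense viral RNA, degrade it, block translation or present viral peptides. In HSCs, acute interferon is known to drive exit from quiescence, and stem cells are known to keep some antiviral genes active without infection.

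Some promoters of these genes carry the ISRE in their sequence, and the stretches below were chosen because they show it in genes whose accessibility is described afterwards. No ISRE was found in the RefSeq promoters searched for the antigen processing genes, so none is shown for them. An accessible promoter region of Psmb8, called in 5 lists, did hold an ISRE within 100 bp of its highest summit. The stretches were cut from the RefSeq promoters (GRCm38.p6, 250 bases before to 50 after the start), are written 5′ to 3′ on the strand of the gene, and have the match to GAAANNGAAA in capitals. Capitals that begin with TTTC are the match on the opposite strand.
Ifih1 (chr2:62646206-62646243, minus strand): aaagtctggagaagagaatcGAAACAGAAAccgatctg
Stat2 (chr10:128270256-128270305, plus strand): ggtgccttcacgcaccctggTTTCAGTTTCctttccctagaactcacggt
Ifit1 (chr19:34640784-34640833, plus strand): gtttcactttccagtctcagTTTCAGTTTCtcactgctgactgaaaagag
Ifit3 (chr19:34583387-34583436, plus strand): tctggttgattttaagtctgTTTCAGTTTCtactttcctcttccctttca
Oas1a (chr5:120907510-120907559, minus strand): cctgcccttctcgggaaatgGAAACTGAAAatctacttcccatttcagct
Rsad2 (chr12:26456543-26456592, minus strand): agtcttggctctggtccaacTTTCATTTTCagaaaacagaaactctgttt
Bst2 (chr8:71537567-71537616, minus strand): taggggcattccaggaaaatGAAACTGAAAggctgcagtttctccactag
Isg15 (chr4:156200861-156200910, minus strand): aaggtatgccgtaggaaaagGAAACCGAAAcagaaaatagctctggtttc
Gbp2 (chr3:142620584-142620633, plus strand): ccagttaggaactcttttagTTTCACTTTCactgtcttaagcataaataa

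Of the 39 genes, 31 had a RefSeq promoter in the table used, and 14 of these 31 (45.2%) held an ISRE, against 3.99% of 27025 genes. A GAS (TTCNNNGAA) was in 10 of the 31 (32.3%, against 9.55%), and a composite of an ETS and an IRF site (GGAANNGAAA) in 5 (16.1%, against 3.16%). All motifs were searched on both strands, and overlapping matches were counted once per promoter.

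The same letters were searched within 100 bp of the highest summit of each accessible region, the point where the transposase signal peaked. The ISRE lay there in 18 of 42 promoter regions of the listed genes (42.9%, 95% Wilson interval 29.1 to 57.8) and in 2.04% of all 16498 promoter regions. Of the distal regions of the listed genes, 6 of 44 (13.6%) held it, against 4.16% of all distal regions. The GAS was in 8 of the 42 promoter regions (3.87% of all promoter regions) and the composite in 6 (1.66%). Within the list, a promoter region with an ISRE was not called more often than one without. Of the regions with the motif 9 of 18, and of those without it 12 of 24, were called in all 12 lists. Their median within-list percentiles were 35.7 with the motif and 38.5 without it. A match is a description of sequence and says nothing about binding in these cells.

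**Figure D1:**
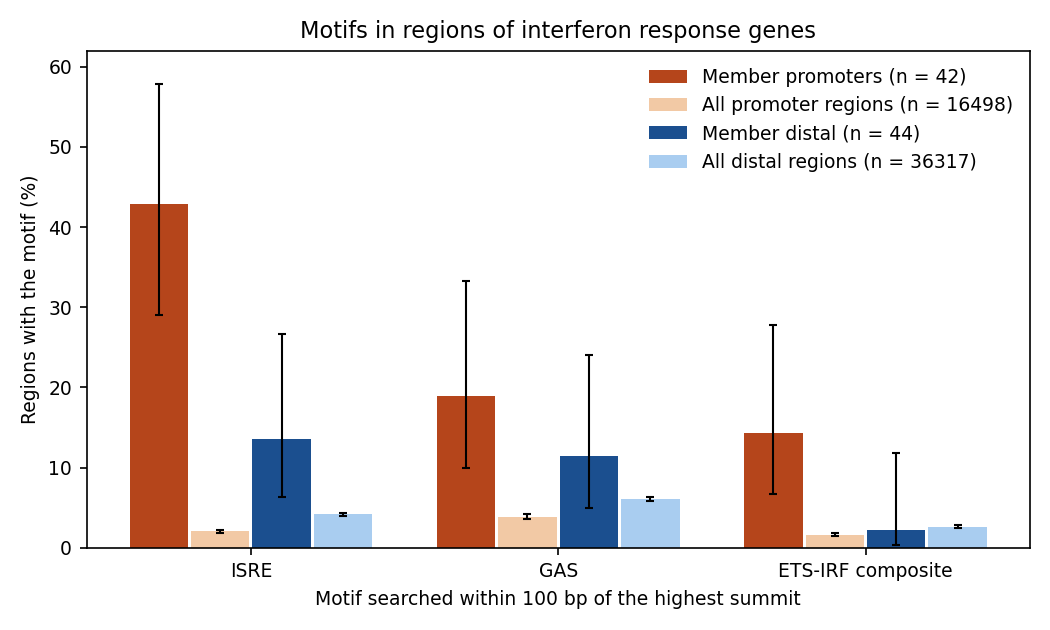
Percentage of accessible regions with each motif (y axis) for the ISRE, the GAS and the ETS-IRF composite (x axis), within 100 bp of the highest summit; bars are promoter and distal regions of the interferon response genes and of all genes, and error bars are 95% Wilson intervals, which cover counting error only. The ISRE was in 42.9% of the promoter regions of the listed genes and in 2.04% of all promoter regions.

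The files hold no reads, so depth is unknown and every value below is a call or a rank within a list. The lists held between 35714 and 61495 summits with a score of at least 3, and aged lists were longer (mean 55040.0 in Aged WT and 55460.3 in Aged Mlkl-/-, against 43015 and 46366 in the young groups), so lists were cut to their 35714 strongest summits. Of 8 HSC marker promoters, those of Kit and Hlf were called in all 12 lists and that of Slamf1, which encodes CD150, in none, and 10 of 13 promoters of T, B, erythroid and myeloid markers were called in none, with Epor called in all 12. The Mlkl promoter was called in 3 of 3 full lists of every group, Mlkl-/- included, and calls at a promoter do not show whether the gene was disrupted. Summits in Y-linked genes appeared in 3 of 6 young and in 0 of 6 aged lists, and the part this has in any difference with age was not tested beyond the fits given below. The 3 libraries Young Mlkl-/- 2, Aged WT 3 and Aged Mlkl-/- 1 lacked a tag that the other 9 file names carry and the labels do not explain.

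Most interferon response gene promoters were accessible in resting HSCs. In lists of equal length, 22 of 39 genes (56.4%) had a promoter call in all 12 libraries, 15 had one in some libraries, and 2, Irf7 and Oas2, had none. Among all protein-coding genes, 42.4% were called in all 12 and 38.0% in none. The called promoters of the list ranked low: the median over the 37 genes of the mean percentile among called regions was 42.4, against 61.6 over all called coding promoters. Among promoters called in all 12 libraries the medians were 69.5 and 75.4. In the full lists 27 of the 39 genes were called in all 12 libraries and only Oas2 in none.

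**Figure D2:**
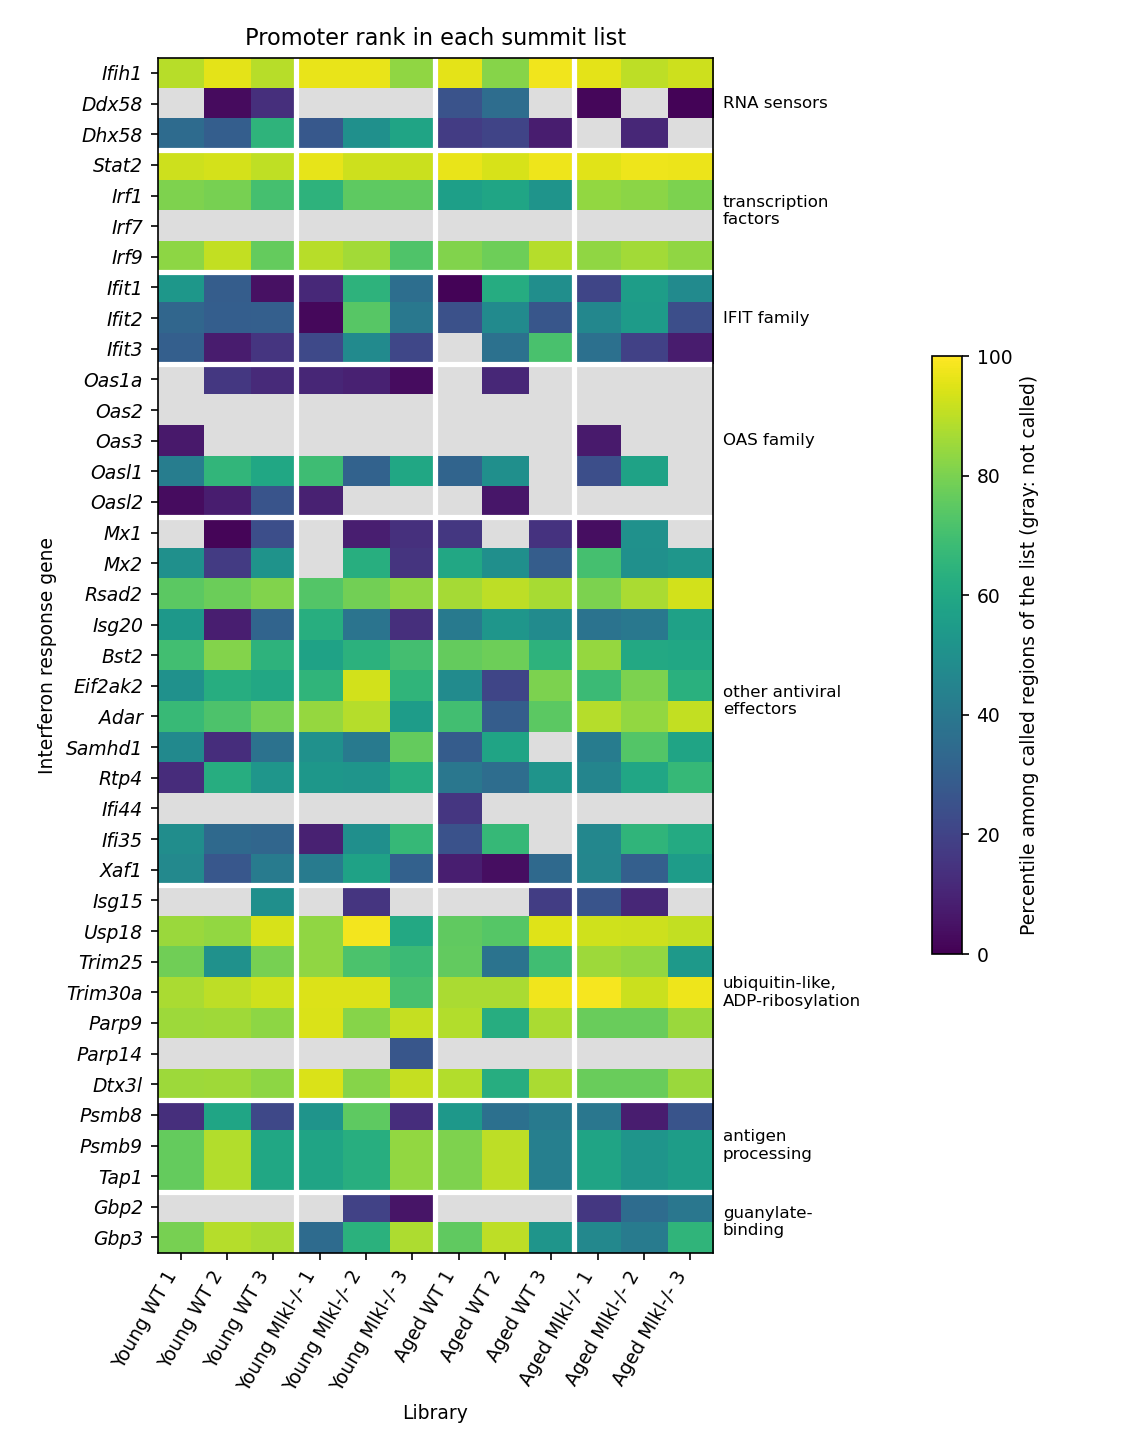
Percentile of each interferon response gene's highest-ranked promoter region among the called regions of a list (color, 0 to 100; gray, not called) for 39 genes (y axis, by role) in 12 libraries (x axis, by group). Stat2 lay at or above 90.6 in every library, whereas Irf7 and Oas2 were gray throughout; for Oasl1, Mx2 and Gbp2 the region shown is called in 10, 11 and 5 lists and the gene within 1 kb of a start in 9, 9 and 8.

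The RNA sensors differed widely. Ifih1, which encodes the long double-stranded RNA sensor MDA5, had a promoter call in all 12 lists, with percentiles from 81.9 to 97.7 and a median of 94.1. It also had 7 distal regions, the most of any listed gene, though some were called in too few lists to be tested. Ddx58, which encodes RIG-I, was called in 6 of 12 lists and reached a percentile of at most 35.8. Dhx58, which encodes their regulator LGP2, lay between them, called in 10 of 12 lists at a median percentile of 23.9.

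Of the transcription factors, the ISGF3 subunits Stat2 and Irf9 had strong promoters in every library. The Stat2 promoter lay between percentiles 90.6 and 97.4, the highest mean of the list (94.6), and the Irf9 promoter between 72.4 and 91.0. Irf1, an early factor of the response to interferon gamma, lay between 51.7 and 83.7. Irf7, which amplifies the type I response, had no promoter call in lists of equal length and 5 of 12 in the full lists, although a region 2.58 kb from its start was called in 11 lists.

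The 3 IFIT genes, which bind viral RNA ends and block its translation, had weaker promoters that were almost always called. Ifit1 and Ifit2 were called in 12 of 12 lists and Ifit3 in 11, and their median percentiles were 42.0, 31.8 and 21.8. Libraries of 1 group were far apart here. The Ifit1 promoter lay at 52.8, 29.7 and 4.42 in Young WT and at 1.16, 61.7 and 49.5 in Aged WT.

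The OAS family, whose enzymes make the messenger that activates RNase L, was the least accessible of the roles, with 0 of 5 genes called in all 12 lists and a median mean percentile of 4.80 over the 4 called. Oasl1 was called in 9 lists, Oas1a in 6, Oasl2 in 5 and Oas3 in 2. In the full lists the promoter of Oas1a was called in all 12, that of Oasl1 in 11, of Oasl2 in 10 and of Oas3 in 6, so most missing calls were of weak summits. Oas2 stayed uncalled in all 12.

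Among 12 other antiviral effectors, 7 were called in all lists. Rsad2, which encodes the viral polymerase inhibitor viperin, was the highest with a median percentile of 82.1, followed by the RNA editor Adar (76.9), the tether of budding virions Bst2 (67.2), the translation-blocking kinase Eif2ak2 (64.4), the chaperone Rtp4 (52.4), the exonuclease Isg20 (40.5) and Xaf1 (37.7). Samhd1, which depletes nucleotides, and Ifi35 were each called in 11 lists, Mx2 in 9, Mx1 in 8 and Ifi44 in 1. The Mx genes encode GTPases that trap viral capsids, and the annotation types Mx2 as a polymorphic pseudogene.

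Genes of ubiquitin-like modification and ADP-ribosylation held some of the strongest and some of the weakest promoters. Trim30a lay between 71.1 and 98.4, and Usp18, the protease that removes ISG15 and damps the receptor, between 60.2 and 98.4. Parp9 and Dtx3l share a divergent promoter with 2 regions. The higher-ranked, with its summit 716 bp from the nearest start, lay between 62.1 and 94.3. The other, with its summit 41 bp from a start, was called in 10 of 12 lists at a mean percentile of 21.8. The RNA sensor ligase Trim25 was called in all 12 lists at a median percentile of 73.7. By contrast Isg15, the ubiquitin-like protein itself, was called in 5 of 12 lists and Parp14 in 1.

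Antigen processing genes were called without exception, with Psmb9 and Tap1, which encode an immunoproteasome subunit and the peptide transporter, sharing a divergent promoter at a median percentile of 61.0, and Psmb8 at 38.3. Of the guanylate-binding proteins, which attack pathogen vacuoles, Gbp3 was called in 12 lists at a median percentile of 70.5 and Gbp2 in 8.

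To ask whether age or loss of Mlkl related to these calls, promoters were counted in each library. Young WT lists held 29, 33 and 34 of the 39 promoters, Young Mlkl-/- lists 29, 31 and 32, Aged WT lists 29, 32 and 27, and Aged Mlkl-/- lists 32, 31 and 28. The means were 32.0 ± 2.65, 30.7 ± 1.53, 29.3 ± 2.52 and 30.3 ± 2.08 (SD, n = 3), and all groups overlapped. Of all coding promoters, 53.8, 53.1, 53.1 and 52.0% were called in these groups. In the full lists the counts were higher, with 34.3 ± 0.577 in Young WT and 32.7 ± 2.08 in Young Mlkl-/- against 34.3 ± 1.53 in Aged WT and 35.3 ± 2.08 in Aged Mlkl-/-. Coding promoters as a whole also had more calls on average in the full aged lists, at 55.2 to 59.7% in the young libraries and 57.3 to 61.7% in the aged ones. At equal length 8 genes were called in more young than aged lists and 4 in more aged lists, and in the full lists 3 and 6. The same counts over all coding genes were not made, so these are not read as a result about the list. At the Oas1a promoter there were 5 young and 1 aged calls at equal length, and 6 and 6 in full. List length differed with age, and its part in these counts was not tested.

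**Figure D3:**
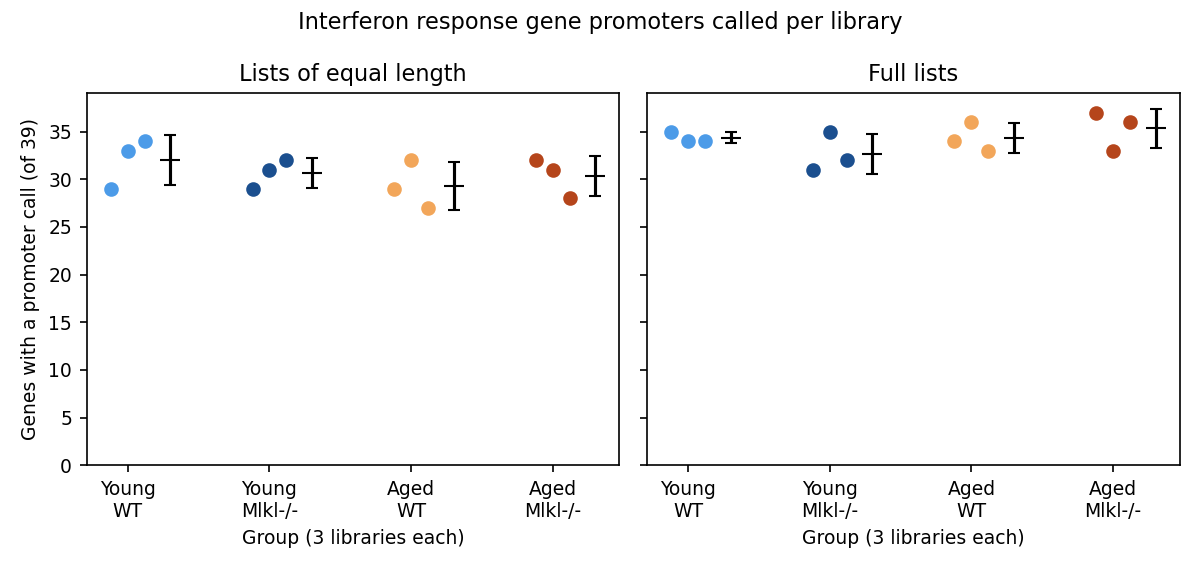
Number of interferon response genes with a promoter call (y axis, of 39) in each library (points) of the 4 groups (x axis), in lists of equal length (left) and in full lists (right); black marks are means ± SD, n = 3. The groups overlap in both panels, with 27 to 34 genes at equal length and 31 to 37 in full lists.

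Counted over regions, the young lists held 63, 66 and 70 (WT) and 64, 67 and 66 (Mlkl-/-) of the 106 regions of the list, and the aged lists 62, 64 and 65 (WT) and 63, 62 and 59 (Mlkl-/-). The mean was 66.0 in young and 62.5 in aged libraries, a difference of -3.50 beside a spread within groups of 2.31 (SD). As shares of the list's regions these were 59.4 to 66.0% in young and 55.7 to 61.3% in aged libraries, beside 54.2 to 58.6% and 54.3 to 58.3% of all regions. The difference between these shares was not tested. In full lists, the aged libraries held more (88.8 against 79.0 regions), but those lists were also longer, and the share over all regions was not counted there.

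Ranks were then compared as normal scores, in which the called regions of a list lie on the upper part of a bell curve with an SD of 1. Uncalled regions were tied at 1 low value per list, between -0.817 and -0.742. The step from not called to a weak call is therefore large. In Young WT 1, an uncalled region stood at -0.77 and a Trim25 region at percentile 0.743 stood at -0.13. In limma, 1 of 82 regions of the list passed an adjusted p under 0.01 for age over both genotypes, where 3.22% of all tested regions did. The region fell. For age in WT 0 of 82 passed in limma (0.294% of all regions), and for age in Mlkl-/- 0 of 82 (0.313%). At an unadjusted p under 0.05 the counts were 8 for age in WT (all regions, 14.9%) and 6 for age in Mlkl-/- (14.8%). For genotype at 3 months, genotype at 18 months, genotype over both ages and the age by genotype interaction, 0 of 82 regions of the list passed, and of all tested regions 0 (0%) did. At an unadjusted p under 0.05, 16 of the 82 regions passed for age over both genotypes (19.5%, against 22.6% of all regions). Of these, 5 were higher in aged libraries (11.5% of all regions were) and 11 lower (11.1% of all regions). Of the 16, 5 had no call in any list of 1 age, and had entered the 82 only through the age at which they rank high, so these had to differ and support nothing. Regions with fewer than 3 calls at 1 age can enter in the same way. The distal Rtp4 region, with 6 young and 2 aged calls, is among the 16 and did so. At the same unadjusted p, 3 regions passed for genotype at 3 months (all regions, 5.42%), 5 for genotype over both ages (6.27%), 4 for genotype at 18 months (5.24%) and 1 for the interaction (4.73%). These include a distal Trim25 region at 3 months and a Gbp2 and a distal Ifit1 region at 18 months. Each passed the filter only through the group where it ranks high, and supports nothing.

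The median change with age was -0.03 over the 82 regions, beside -0.01 over all tested regions. It was -0.03 for the 38 promoter regions of listed genes (all promoters -0.04) and 0.03 for the 30 distal ones (all distal 0.03). Of the 82, 38 were higher and 44 lower in aged libraries.

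**Figure D4:**
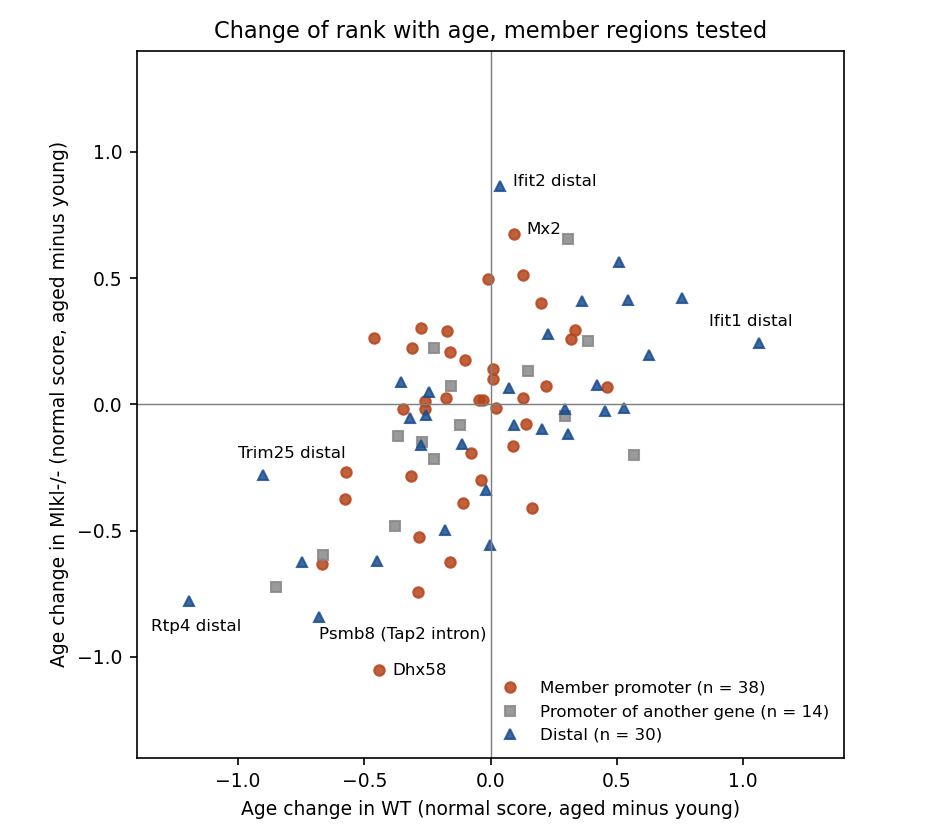
Change of normal score with age in Mlkl-/- HSCs (y axis) against the change in WT HSCs (x axis) for the 82 tested regions of interferon response genes, each point 1 region, by class. Points lie on both sides of 0 on both axes, and the distal Rtp4 region (-1.20 in WT, -0.78 in Mlkl-/-) and the region near Psmb8 (-0.68, -0.84) were low in both genotypes.

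The region that fell with age lies at chr17:34210454-34211055 (mm10), in an intron of Tap2 and within 10 kb of the end of Psmb8, which put it on the list, and the nearest start is that of Gm15821 at 3.71 kb. Tap2 encodes the partner of TAP1 in the peptide transporter. Its percentiles were 90.6, 84.0 and 82.4 in Young WT, 78.7, 75.3 and 91.2 in Young Mlkl-/-, 32.8, 69.7 and 69.8 in Aged WT and 44.7, 45.7 and 41.2 in Aged Mlkl-/-. All 6 young values lay above all 6 aged values, and the region was called in all 12 lists. The change over both genotypes was -0.76 ± 0.154 (SE, limma adjusted p = 0.00309). It was -0.68 ± 0.217 in WT (adjusted p = 0.105) and -0.84 ± 0.217 in Mlkl-/- (adjusted p = 0.0482), and the difference between genotypes was -0.16 ± 0.307 (adjusted p = 0.979). The limma adjusted p no longer passed with list length as a covariate (change -0.61, 0.113), in the 9 libraries with the file-name tag (-0.87, 0.0120), with Y gene summits as a covariate (-0.82, 0.0187), without Young WT 1 (-0.71, 0.0125) or without Aged WT 1 (-0.66, 0.0124). The sequence around its summit, shown because this was the 1 region past the threshold, held none of the 3 motifs.
Tap2 intron (chr17:34210693-34210813, plus strand): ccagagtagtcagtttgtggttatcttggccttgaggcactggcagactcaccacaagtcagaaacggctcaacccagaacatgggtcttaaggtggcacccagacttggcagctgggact

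A distal region in an intron shared by the annotations of Rtp4 and Gm45338 (chr16:23557167-23557711, 37.2 kb from the Rtp4 start and 36.6 kb from that of Masp1) had the largest difference with age of the list. Calls were found in 6 young and 2 aged lists, and in 6 and 4 of the full lists. Its percentiles were 59.7, 57.4 and 42.9 in Young WT, 32.0, 35.7 and 11.4 in Young Mlkl-/-, 5.36, 0 and 0 in Aged WT and 0, 0 and 6.21 in Aged Mlkl-/-, where 0 stands for not called. The groups of 6 did not overlap. That difference was -0.99 in normal score, with -1.20 in WT and -0.78 in Mlkl-/-. With 2 aged calls the region passed the filter of 3 lists only through the young lists. Its lack of overlap therefore supports nothing, and no test of age is given for it. Its values at the gene's own promoter did not follow, at 12.9, 62.4 and 52.5 in Young WT and 39.8, 35.7 and 51.9 in Aged WT.

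The Dhx58 promoter (chr11:100703890-100704617) was the third region whose young and aged values did not overlap, of 82 tested, and 3.64% of all regions had such values. Its percentiles were 35.0, 29.7 and 65.2 in Young WT, 27.4, 50.1 and 58.4 in Young Mlkl-/-, 17.9, 20.5 and 8.06 in Aged WT and 0, 11.1 and 0 in Aged Mlkl-/-. The difference over both genotypes was -0.75 ± 0.227 (limma adjusted p = 0.0434). The values were lower in aged lists of both genotypes, by -0.44 ± 0.321 in WT and by -1.05 ± 0.321 in Mlkl-/-, and the difference between them was not past the threshold (limma adjusted p = 0.979). In the full lists the promoter was called in all 12. Its summit lies 46 bp from the start and carries an ISRE, in capitals.
Dhx58 promoter (chr11:100704257-100704377, plus strand): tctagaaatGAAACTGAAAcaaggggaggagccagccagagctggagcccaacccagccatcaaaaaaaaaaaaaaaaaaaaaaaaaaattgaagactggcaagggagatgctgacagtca

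Other regions were called in young lists alone. A region at chr11:53772455-53772996, within Irf1's neighbourhood and at a start of Gm17334, had calls in 4 young lists and in 0 aged lists, with percentiles of 0, 50.6 and 37.3 in Young WT and 0, 25.9 and 36.0 in Young Mlkl-/-. A distal region of Trim25 (chr11:89027812-89028429) was likewise called in 4 young and 0 aged lists, with percentiles of 0.743, 26.1 and 29.6 in Young WT. Both passed the filter of 3 lists only through the young lists, so no test of age is given for them. In the full lists these were called in 3 and 1 of the 6 aged lists, so some of the missing calls at equal length were weak summits.

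A distal region 9.64 kb from the Ifit1 start (chr19:34650217-34650761) was called in aged lists alone, 4 of 6. No young list held it (0 of 6), at either list length. Its percentiles were 15.3, 23.7 and 54.9 in Aged WT and 0, 0 and 11.8 in Aged Mlkl-/-. It passed the filter only through the aged lists, so no test of age is given. The 3 Aged WT values lay above the 3 Aged Mlkl-/- values. Without the Aged WT calls the region would not have passed the filter, so no test of genotype at 18 months is given either.

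A distal region of Dtx3l (chr16:35919044-35919699, 19.8 kb from its start) lay at 0, 16.7 and 22.9 in Young WT and at 61.0, 32.9 and 56.6 in Aged WT (0.76 ± 0.292, limma adjusted p = 0.195). In Mlkl-/- it lay at 33.4, 20.8 and 53.4 in young and 63.2, 69.3 and 52.4 in aged lists, which overlap. The region near Irf7 without a promoter call of its own (chr7:141268786-141269317) differed by 0.48 ± 0.221 over both genotypes (adjusted p = 0.201). In Mlkl-/- alone the largest positive differences were at a distal region in an intron of Ifit2 (0.87 ± 0.384, adjusted p = 0.286) and at an Mx2 promoter region with its summit 918 bp from a start (0.67 ± 0.322, adjusted p = 0.333). A second Mx2 promoter region, 115 bp from a start, differed the other way in Mlkl-/- (-0.52 ± 0.408, limma adjusted p = 0.592). The Ifit2 summit and the first Mx2 summit lie beside an ISRE, given here in capitals.
Ifit2 distal (chr19:34570156-34570276, plus strand): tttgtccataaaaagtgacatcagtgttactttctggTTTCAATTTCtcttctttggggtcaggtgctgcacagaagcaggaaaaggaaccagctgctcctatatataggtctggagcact
Mx2 promoter (chr16:97535103-97535223, plus strand): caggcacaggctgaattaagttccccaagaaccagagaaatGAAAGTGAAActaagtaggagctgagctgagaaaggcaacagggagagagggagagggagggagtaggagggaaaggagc

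Between genotypes the regions with the clearest separation at 18 months were 3 promoter regions that ranked higher in Mlkl-/-. At the Irf1 promoter (chr11:53769667-53770199) percentiles were 56.4, 58.6 and 51.7 in Aged WT and 83.7, 82.6 and 80.2 in Aged Mlkl-/-, beside 80.7, 79.3 and 70.4 in Young WT and 64.8, 75.3 and 75.5 in Young Mlkl-/-. The 3 aged WT values were the lowest of the 12. The difference at 18 months was 0.59 ± 0.183 (limma adjusted p = 0.804), at 3 months -0.13 ± 0.183, and the interaction 0.72 ± 0.259 (adjusted p = 0.979). None of these passed. A GAS lies beside its summit, 78 bp from the start.
Irf1 promoter (chr11:53769876-53769996, plus strand): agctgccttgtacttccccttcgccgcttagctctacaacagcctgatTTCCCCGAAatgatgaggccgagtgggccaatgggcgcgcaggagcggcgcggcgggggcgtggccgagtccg

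A Gbp2 promoter region (chr3:142621114-142621713) was not called in any of the 6 WT lists. In Mlkl-/- its percentiles were 0, 19.9 and 5.84 in young and 16.2, 35.5 and 39.5 in aged lists. It passed the filter of 3 lists only through Mlkl-/- libraries, so no test of genotype is given for it. Among the full lists it had calls in 2 young and 5 aged libraries. The neighbouring Gbp3 promoter (chr3:142560158-142561091) was lower in Mlkl-/- (-0.52 ± 0.189 over both ages, limma adjusted p = 0.776), and its WT values (52.0 to 90.1) overlapped the Mlkl-/- ones (34.8 to 87.5).

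An Adar promoter (chr3:89730398-89730968) lay at 69.8, 29.4 and 74.6 in Aged WT and at 88.8, 84.0 and 91.0 in Aged Mlkl-/- (0.72 ± 0.229, limma adjusted p = 0.804). The Samhd1 promoter differed by 0.51 ± 0.234 over both ages (adjusted p = 0.776). Counting the Ifit1 distal region, 4 of 82 regions had no overlap between genotypes at 18 months, 1 of them lower in Mlkl-/-, and 8.56% of all regions had none. The Gbp2 region is 1 of the 4 and had to differ, as described above, and the Ifit1 distal region passed the filter only through Aged WT. At 3 months the regions with the smallest p included promoters of Rnd2 near Ifi35 (0.74 ± 0.341) and of Gm44148 near Usp18 (-0.67 ± 0.313), each at a limma adjusted p of 0.899. The Trim25 distal region was among them as well, but passed the filter only through Young WT, so no test of genotype is given for it.

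**Figure D5:**
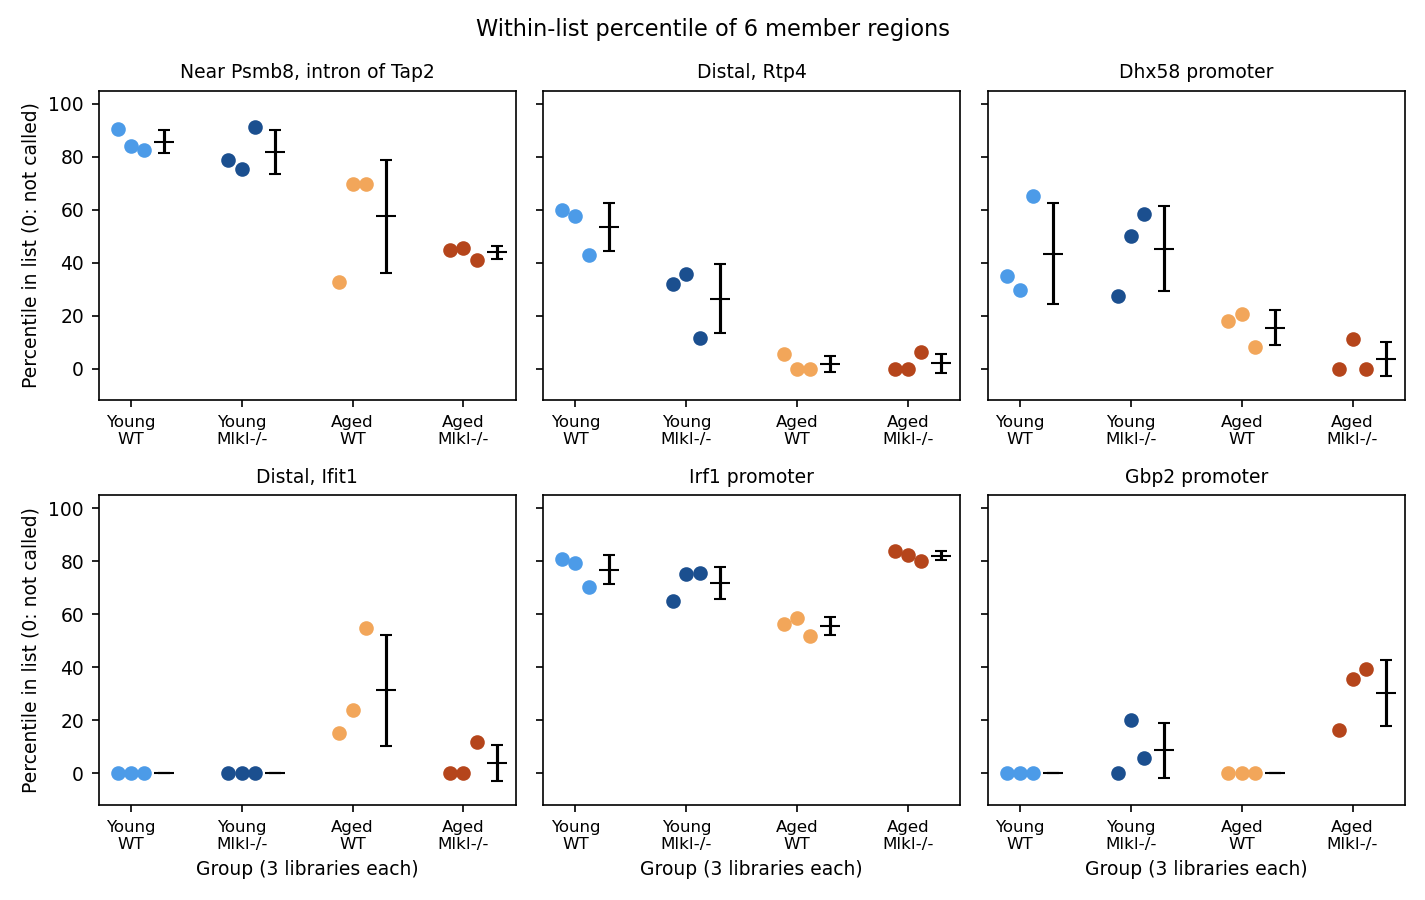
Within-list percentile (y axis, 0 where not called) of 6 regions of interferon response genes in each library (points) by group (x axis); black marks are means ± SD, n = 3. Young values lie above aged values for the Tap2 intron near Psmb8, the distal Rtp4 region and the Dhx58 promoter. Aged WT and Aged Mlkl-/- separate at the Irf1 promoter, where no difference passed the threshold. They also separate at the Gbp2 promoter region not called in WT lists of equal length, for which no test is given.

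Genes upstream and beside the list were counted from 3 further lists. Of 31 genes of interferon signalling (receptors, kinases, factors and adaptors), 18 had promoters called in all 12 lists (58.1%, against 42.4% of all coding genes). Of their 91 tested regions, 2 fell with age and 0 rose, where 3.22% of all regions passed. One lies in an intron of Jak1 (chr4:101172653-101173207), the kinase shared by the interferon receptors, at -0.88 ± 0.198 (limma adjusted p = 0.00711). The other lies near Ifnlr1 (chr4:135679229-135679830), the receptor chain for interferon lambda, at -1.37 ± 0.175 (adjusted p = 5.28e-05). In lists of equal length 0 of 9 interferon genes had a promoter call, where 38.0% of all coding genes had none, and in the full lists 1 had one in some libraries. Of their 6 tested regions 0 passed with age in limma, and 2 were below an unadjusted p of 0.05 (22.6% of all regions were). All 6 were higher in aged libraries, as were 48.8% of all tested regions. Of 125 tested regions near 55 other interferon-stimulated genes, 3 passed with age. Among them, the Tap2 region was the one already described. A region in the UTR of Cmpk2, the neighbour of Rsad2, had 1 young and 6 aged calls. An intron of Zc3hav1, the antiviral zinc finger protein, had 6 young and 2 aged calls. The Cmpk2 and Zc3hav1 regions passed the filter of 3 lists only through the age at which they rank high. Their passing supports nothing, and no test of age is given for them. With list length as a covariate the limma adjusted p was 0.0826 at Jak1, and with Y gene summits 0.0428, so the Jak1 region no longer passed. The region near Ifnlr1 passed in every alternative in which it was fitted.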

How the data were processed

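The authors mapped reads to mm10 with Bowtie2 (2.5.3) and ran MACS2 (2.2.7.1) separately on every library, tool versions being those of the submitters' processing notes. The deposited score of each summit is the −log10 of its q-value. The lowest deposited scores were 2.00 to 2.01, below the cutoff stated by the authors, so summits with a score of at least 3 were kept (q of 0.001). No read counts were used, since the lists hold none, and the edgeR fit of the study was not repeated.

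Lists were cut to 35714 summits, windows of 250 bp on each side were merged, and regions were ranked by score in each list. Percentiles are among the called regions of a list. Ranks of all regions, with uncalled regions tied lowest (normal score -0.817 to -0.742), were turned into normal scores and compared with limma 3.58.1 (R 4.3.3; eBayes with a trend) in 1 fit over the 12 libraries and 38068 regions called in at least 3 lists, with 7 contrasts (threshold, an adjusted p under 0.01 by the Benjamini-Hochberg method over all tested regions). The fit was tested on simulated data. Replicates are separate pools of cells, and p-values measure the spread between these pools. Positions come from GENCODE (basic set) and sequences from RefSeq GRCm38.p6, read with pysam 0.24.0. Other steps used Python 3.11.15, numpy 2.4.6, scipy 1.17.1 and pandas 2.3.3.

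The 39 genes and all lists were chosen with earlier results of these data known. Regions are described in full if past the threshold, or if among the 3 highest or 3 lowest differences of a contrast at an unadjusted p under 0.05. Described as well are the 5 genes with the highest mean promoter percentile and every gene without a promoter call. The Oas1a, Rtp4 and Ifit1 promoter values were chosen after they were seen. Alternatives covered scores, list length, windows, minimum lists, scale, threshold, flank, covariates, a replicate block, fits of 2 groups and each library left out. The Y gene covariate was added after the data were seen.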

Additional observations from a re-analysis of the deposited data

How the results depend on the processing

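For 33 differences (those chosen by the naming rule and, added after the data were seen, the Dhx58 promoter and the called regions of the other lists with age), 0 of 807 values under the alternatives were reversed, and 768 stayed on the same side of the threshold. Most of the 33 had not passed in the main fit, so for them the same side says little. A further 32 values no longer passed, all at the few differences that had passed, and 7 newly passed. The Jak1 call was lost with any 1 library left out except Aged WT 2 or Aged WT 3 (adjusted p up to 0.0253), as percentiles (0.0131), with a replicate block (0.0126) and in the 9 tagged libraries (0.0306). The Cmpk2 region, for which no test is given, no longer passed in the latter or without any of 7 libraries. For age over both genotypes, the count of regions of the list past the threshold (1 of 82) was 2 at a score minimum of 5 and for regions called in at least 6 lists, 3 at an adjusted p under 0.05, and 0 with list length as a covariate, in the 9 libraries with the file-name tag, with 2 kb on each side of the genes and with Y gene summits as a covariate. With 2 kb the Tap2 region no longer belongs to the list. For the others the cause was not tested. Leaving out 1 library in turn gave 0 to 2 regions, 0 without Young WT 1 and 2 without Aged Mlkl-/- 3, where the distal Rtp4 region joined. Without Aged WT 1 the count stayed at 1, but the distal Rtp4 region passed and the Tap2 region did not. The Rtp4 region had entered the fit only through young lists, so its passing supports nothing. For age in Mlkl-/- the count was 1 at an adjusted p under 0.05. Counts over all tested regions moved too, from 1225 for age to 168 with list length, 404 with the tag, 440 with Y gene summits, 2030 in lists of unequal length, 3171 at an adjusted p under 0.05 and 760 to 1157 with 1 library left out. For age in WT (112) and in Mlkl-/- (119) they were 8 and 22 with list length, 11 and 5 with the tag, 21 and 19 as percentiles, 295 and 249 in lists of unequal length, 60 and 46 with a replicate block, and 0 and 2 in fits of the 2 groups. Leaving out 1 library gave 8 (without Aged WT 1) to 170 (without Young Mlkl-/- 3) in WT and 10 (without Aged Mlkl-/- 2) to 111 (without Young WT 1) in Mlkl-/-. The aged minus young difference in promoters called (-1.50) became 1.33 in lists of unequal length, and that in regions called (-3.50) became 1 at a score minimum of 5 and 9.83 in lists of unequal length. The GAS share of promoter regions was 7.14% within 50 bp. Replicate numbers did not pair libraries (same number, correlation of deviations -0.321 to 0.136), and with a replicate block 1 region of the list passed and 964 of all regions.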
